A study of Mus musculus with 4 samples.

Results

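The genes described here are the 3 Grainyhead-like transcription factors Grhl1, Grhl2 and Grhl3 and 3 AP-2 transcription factors, Tfap2a, Tfap2b and Tfap2c. These 6 members were chosen by name, out of 21631 protein-coding gene windows counted. Open chromatin was profiled in single nuclei by ATAC-seq, a method in which the Tn5 transposase cuts and tags open DNA and barcodes assign the reads to nuclei. The nuclei came from mammary tissue of CD1 mice, an outbred strain given as WT, from cells that were sorted as EpCAM+ and Lin- (EpCAM is an epithelial surface protein). One group was fetal (E18, embryonic day 18) and the other adult (8 weeks), with 2 biological replicates, each 1 library, per stage. The deposited table placed 7846 nuclei in 14 numbered classes without names.

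Grainyhead-like proteins bind DNA as dimers and keep genes of cell adhesion and of the epithelial barrier active. Grhl1 is known for desmosome genes and hair anchorage, Grhl2 for Cdh1 and claudin genes, and Grhl3 for the skin barrier, wound closure and neural tube closure. AP-2 proteins bind a GC-rich palindrome and act in epidermis, neural crest and mammary epithelium. TFAP2C is known in breast cells as a regulator of ESR1 and ERBB2, which encode the estrogen receptor and a growth factor receptor.

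Reads overlapping a gene's span plus 2000 bases on either side were summed, and the sum is called the gene's window. A window's level is given in CPM, which scales its reads by the reads in all gene windows of the same nuclei. Libraries held 882 to 2804 nuclei and 6028168 to 19304830 reads in those nuclei, with library medians of 4420 to 7488 reads per nucleus. No barcode of a kept nucleus was shared by any pair of libraries. Most reads came as both ends of 1 fragment: of 819352 sums of 1 or 2 reads, taken per distal region, library and class, 89.7% were of 2 reads. Read counts therefore stand for fewer independent fragments, and the floors below cover counting error only.

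The classes were named from marker genes whose level, as log2(CPM + 2), lay at least 0.5 above the mean of the other classes. Classes 1 and 8 (adult, 7 of 7 basal markers each) and class 4 (fetal, 5 of 7) were basal-like. Classes 3 and 7 (adult) and class 9 (fetal) were luminal progenitor-like, with 5 of 6 progenitor markers each, and so was fetal class 5, with 4 of 6. Classes 2 and 11 were mature luminal-like (6 and 4 of 6 markers) and adult, with 99.8% and 98.8% of nuclei from adult libraries. Class 10 was luminal-like, class 6 stromal-like (6 of 6 stromal markers), and classes 12, 13 and 14 remained unnamed. Epidermal markers were raised in class 4 (4 of 6) and in classes 8 and 12 (3 of 6 each), and their summed level ranged from 56.1 to 103 CPM over the classes. Classes were made from the accessibility of these nuclei, so levels of classes are descriptions without a test. Stage was tested within like classes, and since the classes come from the same reads, those adjusted p-values carry this limit.

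The start sites of Grhl3 and Grhl1 are shown because both lie in a region of the deposited promoter list, and of these 2 regions that of Grhl3 passed the test between the stages. Each line gives the 250 bases before the annotated start from RefSeq on GRCm38.p6, which is the assembly behind mm10, with matches to the AP-2 palindrome GCCNNNGGC or the Grainyhead-like palindrome AACNNGTT in capitals.
Grhl3, chr4:135573633-135573882, minus strand: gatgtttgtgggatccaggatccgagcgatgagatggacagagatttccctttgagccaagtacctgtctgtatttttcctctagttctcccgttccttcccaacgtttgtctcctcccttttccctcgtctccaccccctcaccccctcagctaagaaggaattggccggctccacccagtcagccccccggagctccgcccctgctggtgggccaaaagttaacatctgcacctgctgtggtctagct
Grhl1, chr12:24572037-24572286, plus strand: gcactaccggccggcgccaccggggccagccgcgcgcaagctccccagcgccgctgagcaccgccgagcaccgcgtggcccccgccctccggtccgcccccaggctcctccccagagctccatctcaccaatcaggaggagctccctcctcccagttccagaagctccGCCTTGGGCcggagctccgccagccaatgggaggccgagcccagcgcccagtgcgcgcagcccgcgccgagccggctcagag

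The Grhl1 sequence held 1 AP-2 palindrome, whose first base lies at -82 from the start, and the Grhl3 sequence held none. Both strands were searched, and both palindromes read the same on either strand. Of 27025 promoter windows of this length, 13.6% held the AP-2 palindrome and 3.63% the Grainyhead-like palindrome. Neither palindrome was found before the second Grhl1 start, the 2 Tfap2a starts or the Tfap2b start, which were the other member starts in the table. The Grhl1 stretch was 75.6% G and C and the Grhl3 stretch 56%.

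Of the 6 windows, Grhl3 rose in fetal nuclei and Grhl2 fell, while Grhl1 and the 3 AP-2 windows did not pass the test. Levels in this comparison carry TMM scaling factors, and the test was edgeR's quasi-likelihood test with Benjamini-Hochberg adjustment over all windows. Of 18807 windows tested, 22.2% were called at an adjusted p under 0.05. Grhl3 stood at 101 and 99.8 CPM in fetal replicates 1 and 2 and at 58.9 and 55.8 CPM in adult replicates 1 and 2. Both fetal libraries lay well above both adult libraries, by more than the distance between replicates. The log2 fold change of Grhl3, fetal over adult, was 0.81 (SE 0.11, n = 2 per stage, edgeR adjusted p = 0.000332), a 1.75-fold difference.

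Grhl2 stood at 226 and 218 CPM in the fetal libraries and at 289 and 280 CPM in the adult libraries. The stages did not overlap, and the fall in fetal nuclei was shallow. Its log2 fold change was -0.36 (SE 0.09, edgeR adjusted p = 0.0142), that is 1.28-fold more in the adult. The call was lost without fetal replicate 1 (adjusted p = 0.0754) and without fetal replicate 2 (adjusted p = 0.147), with log2 values of -0.39 and -0.34. Grhl1 had 172 and 151 CPM in fetal and 184 and 172 CPM in adult libraries, and these ranges overlapped (log2 fold change -0.14, edgeR adjusted p = 0.383). Without 1 library the value ran from -0.24 without fetal replicate 1 to -0.0578 without fetal replicate 2, and it missed the threshold each time. Counted around its start sites only, Grhl1 passed as lower in fetal nuclei (-0.40, edgeR adjusted p = 0.0112).

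Of the AP-2 genes, Tfap2c had 120.5 and 120.9 CPM in fetal and 105.1 and 105.6 CPM in adult libraries. The stages did not overlap, yet the window missed the threshold (log2 fold change 0.20, SE 0.11, edgeR adjusted p = 0.213). Within progenitor-like and within basal-like nuclei, described further on, its value had the opposite sign. Tfap2a had 229 and 255 CPM in fetal and 242 and 217 CPM in adult libraries, and Tfap2b had 194 and 242 CPM against 178 and 236 CPM. For both, the libraries of a stage lay further apart than the stage means. Their log2 fold changes were 0.08 each (edgeR adjusted p = 0.629 and 0.724).

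Per kb of window, the 3 AP-2 genes were the more accessible. Tfap2a had 8.51 CPM per kb in fetal and 8.07 in adult nuclei, Tfap2c 7.13 and 6.22, and Tfap2b 6.43 and 6.10. Grhl1 had 3.29 and 3.62 CPM per kb, Grhl3 2.81 and 1.605, and Grhl2 1.65 and 2.11. The Grhl2 window spans 134.7 kb and the Tfap2c window 16.95 kb. The windows of Grhl2, Grhl3 and Tfap2a also overlap the lncRNA genes Gm16136, Gm30888 and Gm26688, whose reads cannot be separated from the members'.

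**Figure D1:**
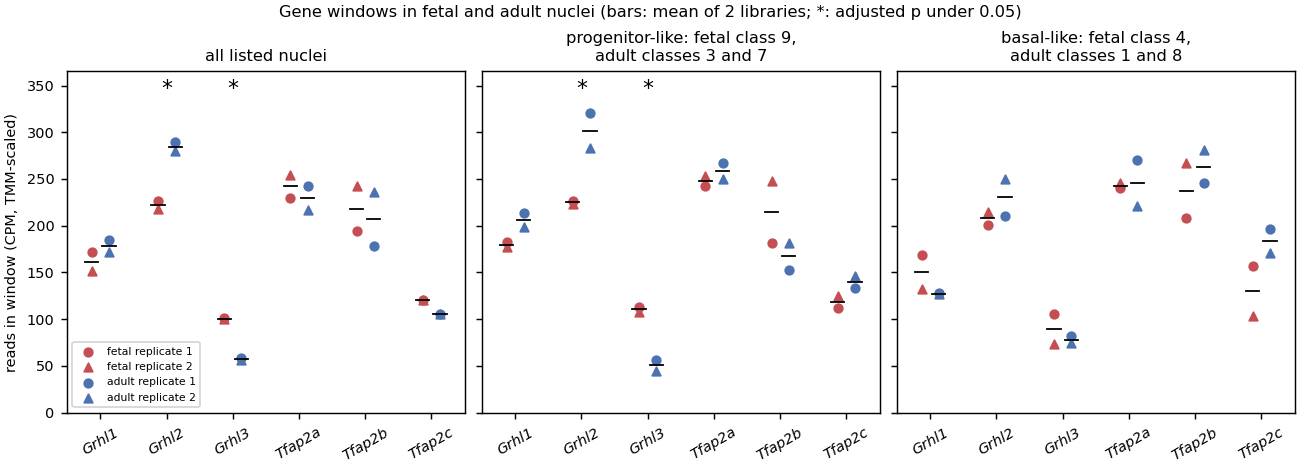
Reads in each member's window (CPM after TMM scaling) in the 4 libraries, for all listed nuclei, progenitor-like nuclei and basal-like nuclei. Points are libraries, short bars the mean of 2 libraries and asterisks adjusted p under 0.05; fetal Grhl3 lies above adult Grhl3 in the first 2 panels and overlaps it in the third.

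Whole-library sums mix classes that belong almost wholly to 1 stage. Mature luminal markers summed to 333 and 367 CPM in the fetal libraries and to 700 and 746 CPM in the adult libraries, and 5 of 6 fell in fetal nuclei by the same test. Stromal markers summed to 269 and 272 CPM in the fetal and 188 and 198 CPM in the adult libraries, and 2 of 6 rose. General luminal markers summed to 346 and 331 CPM in the fetal and 504 and 430 CPM in the adult libraries, and 3 of 5 fell. The part of these shifts in the whole-library differences was not tested, and the 2 comparisons within like classes that follow stand beside them.

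In progenitor-like nuclei, fetal class 9 against adult classes 3 and 7, Grhl3 rose again and Grhl2 fell again, and the other 4 windows did not pass the test. Tfap2b passed where replicate number was taken as a block, as given in the last paragraph. Of 17375 windows, 15.8% were called in this comparison. The classes were not alike in all markers: progenitor markers summed to 508 CPM in class 9 and to 648 and 649 CPM in classes 3 and 7. Basal markers summed to 319 CPM in class 9, with 2 of 7 raised, and to 304 and 196 CPM in classes 3 and 7. The part of this in the stage differences was not tested. Grhl3 had 113 and 108 CPM in the fetal sums and 56.2 and 44.9 CPM in the adult sums. No adult value came near a fetal one. Its log2 fold change was 1.13 (SE 0.16, n = 2 per stage, edgeR adjusted p = 3.15e-05), a 2.19-fold difference.

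Grhl2 had 227 and 223 CPM in fetal class 9 and 320 and 283 CPM in the adult classes (log2 fold change -0.42, SE 0.11, edgeR adjusted p = 0.0107). It lost the call without fetal replicate 2 (adjusted p = 0.0780) and without adult replicate 1 (adjusted p = 0.119), at log2 values of -0.41 and -0.33. Tfap2b had 182 and 248 CPM in the fetal and 153 and 182 CPM in the adult sums, whose ranges just overlapped. Its log2 fold change of 0.37 (SE 0.14) had an edgeR adjusted p of 0.0691 and passed without fetal replicate 1 (0.58, adjusted p = 0.00778) and without adult replicate 2 (0.51, adjusted p = 0.0115). Tfap2c had 112 and 125 CPM in the fetal and 133 and 146 CPM in the adult sums. These did not overlap and lay in the opposite order to the whole libraries (log2 fold change -0.23, SE 0.13, edgeR adjusted p = 0.255). Grhl1 and Tfap2a differed by -0.20 and -0.0599 on the log2 scale (edgeR adjusted p = 0.260 and 0.770).

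In basal-like nuclei, fetal class 4 against adult classes 1 and 8, none of the 6 windows passed the edgeR test, and none passed DESeq2 either. Tfap2c passed where replicate number was taken as a block, as given in the last paragraph. Of 16475 windows, 6.16% were called, and 1 member, Tfap2c, had an unadjusted p under 0.05. Tfap2c had 157 and 103 CPM in the fetal and 197 and 171 CPM in the adult sums, with both fetal values below both adult values. Its log2 fold change was -0.54 (SE 0.21, edgeR adjusted p = 0.112), and it passed without fetal replicate 1 (-0.83, adjusted p = 0.0428). Grhl3 had 106 and 74.0 CPM in the fetal and 81.7 and 74.3 CPM in the adult sums, which overlapped (log2 fold change 0.17, edgeR adjusted p = 0.769). The log2 values of Grhl1, Grhl2, Tfap2a and Tfap2b were 0.22, -0.15, -0.00639 and -0.13 (edgeR adjusted p from 0.611 to 0.990). These sums were the shallowest: fetal class 4 held 470 nuclei from the 2 fetal libraries, and the SE of the Grhl2 log2 fold change was 0.18 here against 0.09 over all nuclei. A test of the difference between the 2 class comparisons, added after the data were seen, called 3.13% of 17067 windows and 1 member, Grhl3 (difference 1.01 on the log2 scale, SE 0.28, edgeR adjusted p = 0.0415). That call was lost without fetal replicate 1 (1.19, adjusted p = 0.123), fetal replicate 2 (0.73, adjusted p = 0.374) or adult replicate 2 (0.94, adjusted p = 0.109). With library as a block Tfap2b passed too (0.54, adjusted p = 0.0406).

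Across the classes, the windows of 5 members, all but Grhl3, were lowest in stromal-like class 6. That name rests on marker genes alone, and the cells had been sorted as EpCAM+. Tfap2c had 15.7 CPM in class 6, Tfap2b 29.6, Tfap2a 61.0, Grhl2 67.1 and Grhl1 76.7 CPM. These levels rest on few reads, 18 for Tfap2c and 77 for Grhl2. By library, Grhl2 had 0 and 37.9 CPM in the fetal and 23.9 and 133.8 CPM in the adult nuclei of class 6. The median over the other 13 classes exceeded the stromal-like level by 7.83-fold for Tfap2c and 7.76-fold for Tfap2b. For Tfap2a, Grhl2 and Grhl1 it exceeded it by 4.00-fold, 3.67-fold and 2.14-fold. Grhl3 was the exception, with 63.6 CPM in class 6 and a median of 69.1 CPM elsewhere, a ratio of 1.09.

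**Figure D2:**
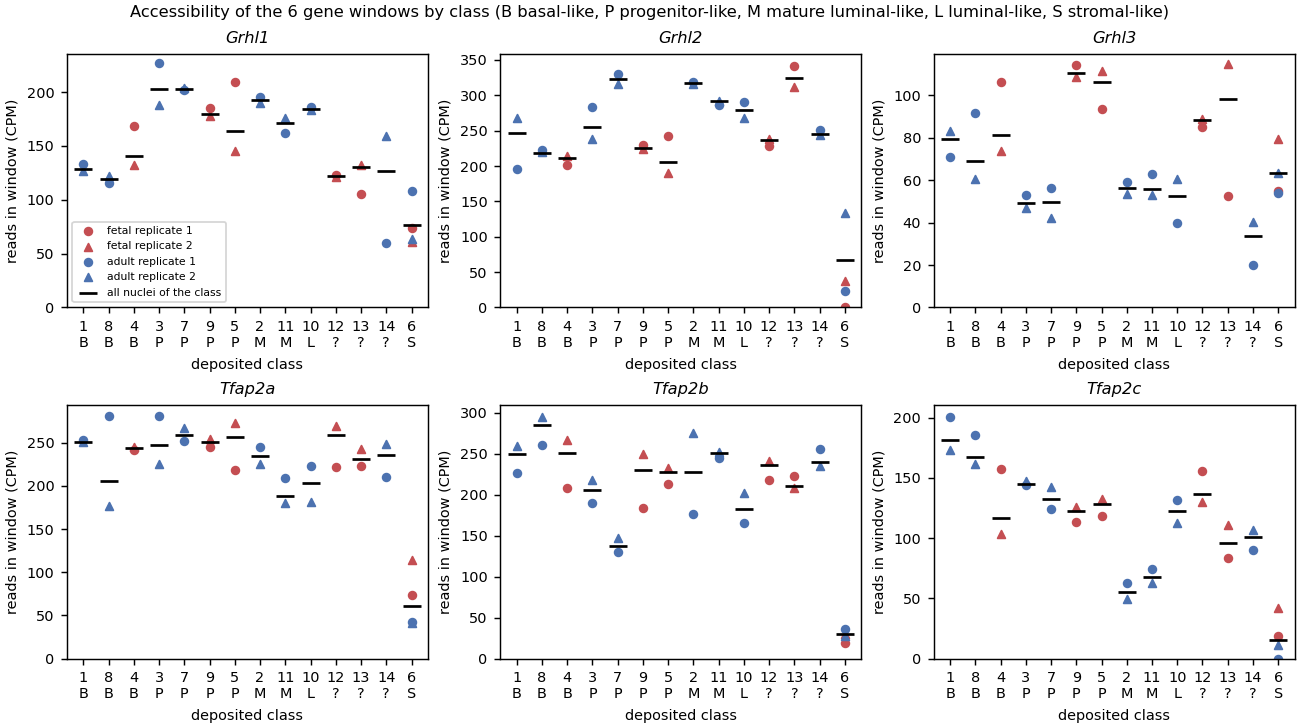
Reads in each member's window (CPM) in the 14 deposited classes, with letters for the names from markers. Coloured points are libraries with at least 20 nuclei in the class and black bars all nuclei of the class; Tfap2c falls in mature luminal-like classes 2 and 11 and Grhl3 is highest in fetal classes 9 and 5.

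Tfap2c differed most between the adult basal-like, progenitor-like and mature luminal-like groups. It was highest in basal-like class 1 (181.5 CPM over all nuclei, 200.3 and 173.5 CPM in the 2 adult libraries) and class 8 (167 CPM). Progenitor-like classes 3 and 7 followed with 145 and 132 CPM. Mature luminal-like classes 2 and 11 had 55.5 and 67.7 CPM. Class 2 stood at 62.8 and 49.1 CPM and class 11 at 74.2 and 63.0 CPM in the 2 adult libraries, all below the lowest progenitor-like value of 124 CPM. With classes joined, the adult means were 181 ± 17.99, 138 ± 9.87 and 59.8 ± 7.79 CPM (SD, n = 2) in basal-like, progenitor-like and mature luminal-like nuclei. Fetal class 9 with 123 CPM, class 5 with 128 CPM and class 12 with 136 CPM lay near the adult progenitor-like classes.

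Grhl3 was higher in the fetal than in the adult luminal classes. It was highest in fetal class 9 (110 CPM, 114.5 and 108.6 CPM by library) and fetal class 5 (106 CPM, 93.5 and 111 CPM by library). Adult luminal classes 2, 3, 7, 10 and 11 had 56.4, 49.05, 49.8, 52.4 and 56.1 CPM, all below the 63.6 CPM of the stromal-like class, whose libraries ranged from 53.9 to 79.6 CPM. Adult basal-like classes 1 and 8 had 79.7 and 69.1 CPM, and fetal basal-like class 4 had 81.1 CPM. The lowest of all was unnamed class 14 with 33.7 CPM from 21 reads.

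With classes joined, Grhl1 and Grhl2 were more accessible in the luminal than in the basal-like groups of adult nuclei. Grhl1 had 203 ± 9.67 CPM in adult progenitor-like, 186 ± 2.56 CPM in mature luminal-like and 125 ± 0.68 CPM (SD, n = 2) in basal-like nuclei. Progenitor-like nuclei thus had 1.63 times the basal-like level, with no overlap of libraries. Grhl2 had 297 ± 24.5, 310 ± 3.61 and 227 ± 27.2 CPM in the same order, and its progenitor-like and mature luminal-like values did not differ beyond their spread. Its progenitor-like classes differed, with 283 and 239 CPM by adult library in class 3 and 330 and 316 CPM in class 7. Basal-like class 1 had 196 and 267.5 CPM and so overlapped class 3. In fetal nuclei, Grhl2 had 227 ± 3.58 CPM in class 9 and 208 ± 9.45 CPM in basal-like class 4, while progenitor-like class 5, at 242 and 190 CPM by library, lay on either side of class 4. The highest Grhl2 level of all classes was in unnamed, mostly fetal class 13, with 324.4 CPM (341 and 312 CPM in the fetal libraries). Adult class 7, with 323.6 CPM, was level with it, and the libraries of these classes overlapped.

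Tfap2a varied least, by 1.37-fold between the lowest and highest of the 13 classes other than class 6. Its adult means were 242 ± 34.3, 255 ± 10.0 and 223 ± 20.6 CPM (SD, n = 2) in basal-like, progenitor-like and mature luminal-like nuclei, and the 2 basal-like libraries, at 266 and 217 CPM, lay on either side of the other 2 means. Among the 13 classes other than class 6, Tfap2b was lowest in progenitor-like class 7 (137.5 CPM, 130 and 147 CPM by library) and highest in basal-like class 8 (286 CPM, 261 and 296 CPM by library). Both classes are adult, and their libraries did not overlap. In mature luminal-like nuclei Tfap2b stood at 191 and 267 CPM in adult replicates 1 and 2, so its place there depends on the library.

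Deposited promoter regions, each 1000 bases wide and tested over the whole promoter list, included 2 near Grhl3 that rose in fetal nuclei. Levels of regions in stage comparisons are CPM of the reads in all tested regions of their kind. Of 18570 promoter regions, 21.5% were called. The region that holds the annotated Grhl3 start (chr4:135572882-135573881) had 72.7 and 64.1 CPM in fetal and 28.2 and 30.4 CPM in adult libraries. Both fetal values were far above both adult values. The log2 fold change was 1.21 (SE 0.20, edgeR adjusted p = 5.64e-06).

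A second Grhl3 promoter region (chr4:135574946-135575945) lies beyond the start, outside the gene span and over the lncRNA Gm30888. It had 41.8 and 59.3 CPM in fetal and 26.7 and 26.6 CPM in adult libraries (log2 fold change 0.96, SE 0.22, edgeR adjusted p = 0.00091). Without fetal replicate 2 it lost the call (0.66, adjusted p = 0.154). As CPM of reads in gene windows, it had 32.8 and 26.3 in adult basal-like nuclei and 4.92 and 2.32 in adult progenitor-like nuclei, an 8.16-fold ratio of the means. Fetal basal-like nuclei had 28.4 and 26.0 and fetal class 9 had 14.6 and 18.8 on that scale. Fetal class 5 had a mean of 6.70, class 12 one of 14.6 and adult mature luminal-like nuclei one of 4.18. The start region itself had means of 13.9 in adult basal-like, 8.81 in adult progenitor-like and 7.22 in adult mature luminal-like nuclei, and of 16.0 in fetal class 4, 23.5 in class 9, 20.55 in class 5 and 23.8 in class 12. The 2 highest of these 7 means were those of the basal-like groups at the second region, and those of fetal classes 12 and 9 at the start region.

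**Figure D3:**
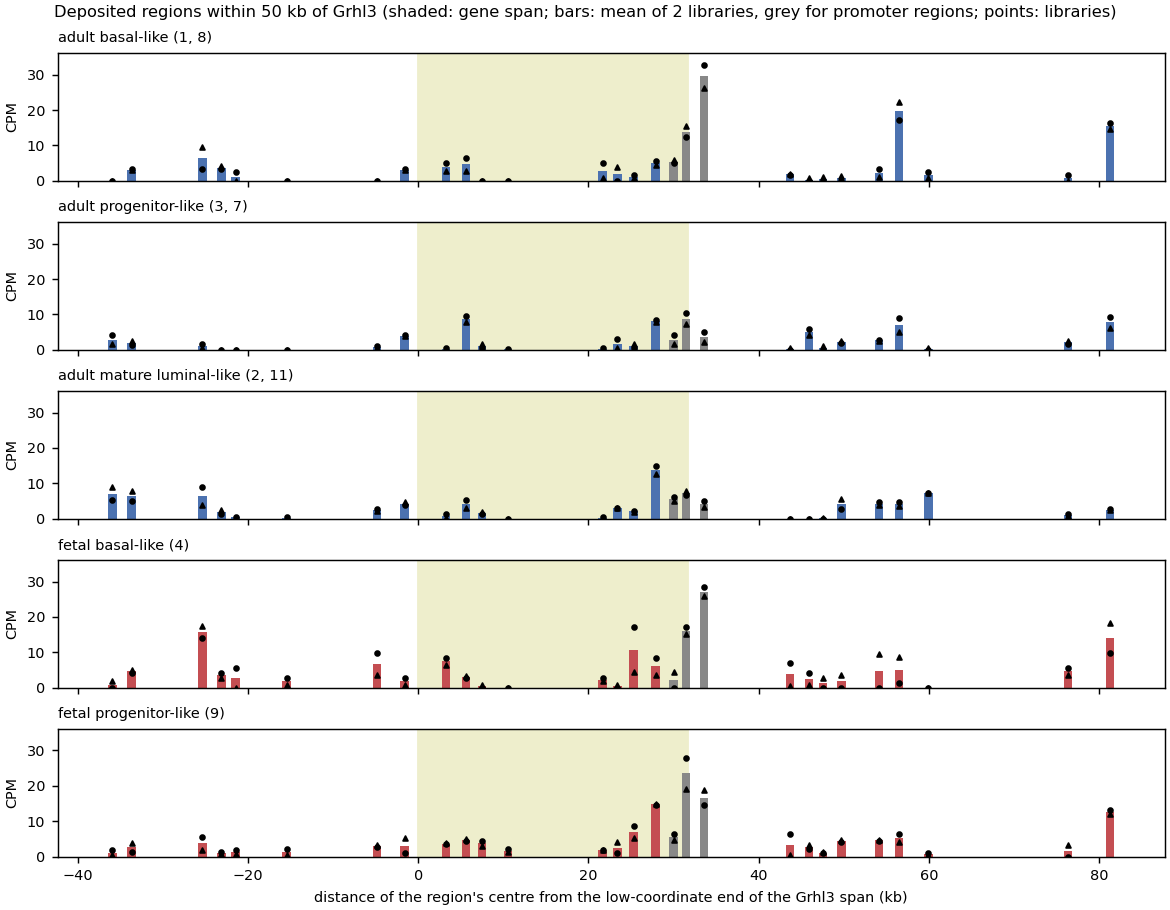
Mean CPM of reads in gene windows (bars, 2 libraries; points, each library) in deposited regions around Grhl3, by distance in kb from the low-coordinate end of the span, for 5 class groups. The promoter region just beyond the span is tall in both basal-like panels and small in the adult luminal panels.

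At Grhl1 the start region (chr12:24571587-24572586) did not pass the test, with 127 and 113 CPM in fetal and 156 and 130.5 CPM in adult libraries (log2 fold change -0.27, edgeR adjusted p = 0.143). The next promoter region (chr12:24572736-24573735), inside the gene span, fell in fetal nuclei. It had 14.4 and 21.8 CPM in fetal and 41.2 and 42.9 CPM in adult libraries (log2 fold change -1.14, SE 0.25, edgeR adjusted p = 0.000526). In gene-window CPM it had 20.5 and 19.6 in adult mature luminal-like, 7.38 and 9.30 in progenitor-like and 3.28 and 3.11 in basal-like nuclei. It was thus highest in the mature luminal-like classes, which hold few fetal nuclei, and the part of this in its stage difference was not tested.

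The 2 promoter regions in the Grhl2 window, the 2 of Tfap2b and the 2 of Tfap2c did not pass the test. Their log2 fold changes ran from -0.73 at chr1:19206995-19207994 near Tfap2b (edgeR adjusted p = 0.0609; without adult replicate 1 -0.91, adjusted p = 0.0488) to 0.19 at chr2:172550023-172551022 in Tfap2c (adjusted p = 0.339). The Tfap2a window held no region of the promoter list. The nearest one (chr13:40704454-40705453) lies below the low-coordinate end of the span (40713802). That side is away from the annotated Tfap2a starts (40734920 and 40733795, minus strand). This region had 24.0 and 20.4 CPM in fetal and 8.48 and 12.2 CPM in adult libraries (log2 fold change 1.07, SE 0.35, edgeR adjusted p = 0.0209). Left-out libraries cost it the call: adjusted p = 0.0888 without fetal replicate 1, 0.0585 without fetal replicate 2 and 0.168 without adult replicate 1, at 0.98, 1.20 and 0.83.

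Distal regions within 50 kb of the members numbered 149, of which 137 had the mean of 10 reads per library needed for the test. Of these, 46 were called, 22 higher and 24 lower in fetal nuclei, a share of 33.6% beside 35.3% of all 122865 distal regions tested. The members' distal regions thus changed about as often as distal regions in general. Over all distal regions tested, 20351 were called higher and 23072 lower in fetal nuclei. Near Grhl2, 2 rose and 12 fell of 39 tested, and near Tfap2c 7 rose and 1 fell of 21. Most of these 7 lie in a stretch, described further on, that was chosen after its values were seen. Near Grhl3, 6 rose and 2 fell of 21, and near Grhl1 4 rose and 6 fell of 21. Near Tfap2a and Tfap2b 3 each were called, of 18 and 17.

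Regions near Grhl1 differed by class. A region before its span (chr12:24536477-24537476, 35.3 kb from it) rose in fetal nuclei, with 54.8 and 63.0 CPM against 15.9 and 17.0 CPM (log2 fold change 1.85, SE 0.22, edgeR adjusted p = 1.15e-08). In gene-window CPM it had 25.4 and 27.0 in adult basal-like, 12.9 and 8.52 in progenitor-like and 1.34 and 1.16 in mature luminal-like nuclei. Fetal class 4 had 29.8 and 28.7, close to adult basal-like nuclei, and fetal class 9 had 21.9 and 32.3. An intragenic region (chr12:24587041-24588040) fell in fetal nuclei, with 5.99 and 3.07 CPM in fetal and 21.7 and 18.2 CPM in adult libraries (log2 fold change -2.28, SE 0.37, edgeR adjusted p = 5.16e-06). It held 80 and 113 reads in the 2 adult libraries of mature luminal-like nuclei (17.8 and 18.65 in gene-window CPM) and 28 and 18 in those of progenitor-like nuclei, and none in 1050 adult or 470 fetal basal-like nuclei. A floor of 3 reads over the adult basal-like group is 0.73 CPM, and the mature luminal-like mean was 25.0 times that floor. Since most reads come in pairs, this ratio is not a lower limit.

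The region with most reads near Grhl1 was also intragenic (chr12:24591608-24592607). It had 127 and 84.0 CPM in fetal and 65.7 and 56.4 CPM in adult libraries (log2 fold change 0.77, SE 0.19, edgeR adjusted p = 0.00112). The call was lost without fetal replicate 1 (0.47, adjusted p = 0.124). In gene-window CPM, adult progenitor-like nuclei had 59.9 and 52.2 there, and mature luminal-like and basal-like nuclei had between 18.34 and 24.6. Fetal class 9 had 64.8 and 51.9, which overlapped the adult progenitor-like values. Fetal class 4 had 72.3 and 37.9, both above the adult basal-like values.

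Of the called Grhl2 regions most were lower in fetal nuclei, while 25 of the 39 tested were not called. Its most read distal region (chr15:37312505-37313504, in the span) had 25.7 and 22.5 CPM in fetal and 50.5 and 48.85 CPM in adult libraries (log2 fold change -1.06, SE 0.22, edgeR adjusted p = 0.000148). Its largest fall (chr15:37319888-37320887) was from 30.8 and 18.1 CPM in adult to 3.85 and 7.75 CPM in fetal libraries (log2 fold change -1.93, SE 0.33, adjusted p = 1.55e-05). In gene-window CPM the second region had 22.1 in adult mature luminal-like, 5.51 in adult progenitor-like and 2.47 in fetal class 9 nuclei. The first had 31.0, 31.7 and 17.1 in those groups, so it was lower in fetal than in adult progenitor-like nuclei as well. The largest rise (chr15:37292633-37293632) rested on 85 reads, at 7.27 and 7.59 CPM against 1.09 and 1.96 CPM (edgeR adjusted p = 0.00142).

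Among distal regions near Grhl3, the largest rise with enough reads to be named lay in the span (chr4:135566696-135567695), with 16.7 and 10.3 CPM in fetal and 3.28 and 3.67 CPM in adult libraries (log2 fold change 1.90, SE 0.41, edgeR adjusted p = 0.000329). The largest fall lay 28.2 kb beyond the span (chr4:135601322-135602321), with 0.856 and 0.969 CPM against 7.30 and 7.07 CPM (log2 fold change -2.91, SE 0.62, edgeR adjusted p = 0.00026). Adult mature luminal-like nuclei held 33 and 45 of its reads in the 2 libraries, and adult progenitor-like nuclei 0 and 2. Of the other called regions in the span, chosen after their values were seen, chr4:135544646-135545645 rose by 1.73 (adjusted p = 0.0043) and chr4:135563037-135564036 by 2.21 (adjusted p = 0.0279) on the log2 scale. The most read distal region of Grhl3 (chr4:135569276-135570275) did not pass the test (log2 fold change 0.30, adjusted p = 0.387).

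At Tfap2a the most read region of any member (chr13:40730738-40731737, 2397 reads, in the span) had 118 and 111 CPM in fetal and 120 and 101 CPM in adult libraries. It hardly varied, with a log2 fold change of 0.05 (edgeR adjusted p = 0.840) and 51.8 to 73.8 CPM of window reads over the libraries of the 3 adult groups. The largest fall near Tfap2a (chr13:40676257-40677256, 37.0 kb before the span) was basal-leaning, with 23.8 and 24.2 in adult basal-like, 7.11 and 3.62 in progenitor-like and 0.446 and 0.66 in mature luminal-like nuclei, all in gene-window CPM. Its stage values were 4.28 and 4.20 CPM in fetal and 11.1 and 12.05 CPM in adult libraries (log2 fold change -1.45, SE 0.40, edgeR adjusted p = 0.00422). The largest rise (chr13:40708602-40709601) rested on 83 reads (1.51, adjusted p = 0.0328) and lost the call without fetal replicate 2 (0.90, adjusted p = 0.464), adult replicate 1 (1.84, adjusted p = 0.0575) and adult replicate 2 (1.02, adjusted p = 0.283).

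Near Tfap2b, the most read distal region (chr1:19233869-19234868, in the span) missed the threshold, with 41.5 and 42.0 CPM in fetal and 22.8 and 36.8 CPM in adult libraries (log2 fold change 0.48, edgeR adjusted p = 0.0934; without adult replicate 2 0.76, adjusted p = 0.0210). The largest rise and fall rested on 120 and 103 reads. The rise (chr1:19226296-19227295, 1.57, adjusted p = 0.00568) lost the call without adult replicate 1 (1.29, adjusted p = 0.0793). The fall (chr1:19178641-19179640, -1.42, adjusted p = 0.0429) lost it without fetal replicate 1 (-0.98, adjusted p = 0.169) and without adult replicate 2 (-1.25, adjusted p = 0.248).

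A stretch of distal regions on the high-coordinate side of Tfap2c had, in sum, few reads in mature luminal-like nuclei and a higher level in the other 6 class groups compared. This stretch was singled out after its values were seen. It holds 9 distal regions whose centres lie 20.8 to 45.0 kb beyond the gene span. Summed over the 9, adult basal-like nuclei had 96.0 and 62.6 and progenitor-like nuclei 29.0 and 33.6 in gene-window CPM. Mature luminal-like nuclei had 0.223 and 1.82, from 12 reads in 7 of 2076 nuclei, and 5 of the 9 regions had no read there. Of the 12 reads 1 was in adult replicate 1 and 11 were in adult replicate 2. The stretch was chosen for these low values, so they are a description. Fetal class 4 had 36.9 and 52.4, fetal class 9 had 37.9 and 42.5, fetal class 5 had 67.6 and 82.6, and class 12 had 76.9 and 67.9. A read that touches 2 of the regions counts in both.

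The most read region of this stretch (chr2:172584538-172585537, 26.4 kb beyond the span) had 40 and 64 reads in the 2 libraries of adult basal-like, 55 and 69 in those of adult progenitor-like and 0 in those of adult mature luminal-like nuclei. The floor of 3 reads over the mature luminal-like group was 0.284 CPM. The progenitor-like mean was 57.8 times and the basal-like mean 96.6 times that floor. These ratios are not lower limits, since most reads come in pairs. Regions nearer the gene varied. One at the end of the span (chr2:172558606-172559605) had 40 and 46 reads in progenitor-like and 0 in mature luminal-like nuclei. In the span, the ratio of progenitor-like to mature luminal-like CPM was 35.0 at chr2:172553582-172554581, 8.66 at chr2:172556094-172557093 and 1.64 at chr2:172546719-172547718. Between the span and the stretch it was 11.6 at chr2:172560152-172561151, 2.81 at chr2:172562400-172563399 and 13.15 at chr2:172576469-172577468. Low mature luminal-like levels were thus not particular to the stretch. The 8 distal regions before the span summed to 20.95 and 19.6 in mature luminal-like and 35.0 and 18.6 in progenitor-like nuclei, in gene-window CPM, and the libraries of these groups overlapped. Single regions there went both ways on few reads. The ratio of progenitor-like to mature luminal-like CPM was 8.15 at chr2:172542492-172543491 and 7.64 at chr2:172522111-172523110, each from 0 and 4 mature luminal-like reads. It was 0.231 at chr2:172525524-172526523, from 2 and 2 progenitor-like reads, and 0.634 at chr2:172515991-172516990, from 2 and 4.

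The Tfap2c promoter regions kept reads in mature luminal-like nuclei. At chr2:172550023-172551022 these had 30.8 and 24.4 and progenitor-like nuclei 36.6 and 38.0 in gene-window CPM. At chr2:172548928-172549927 they had 14.5 and 10.1 against 32.5 and 34.4. The progenitor-like means were thus 1.35 and 2.72 times the mature luminal-like means at these promoter regions.

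**Figure D4:**
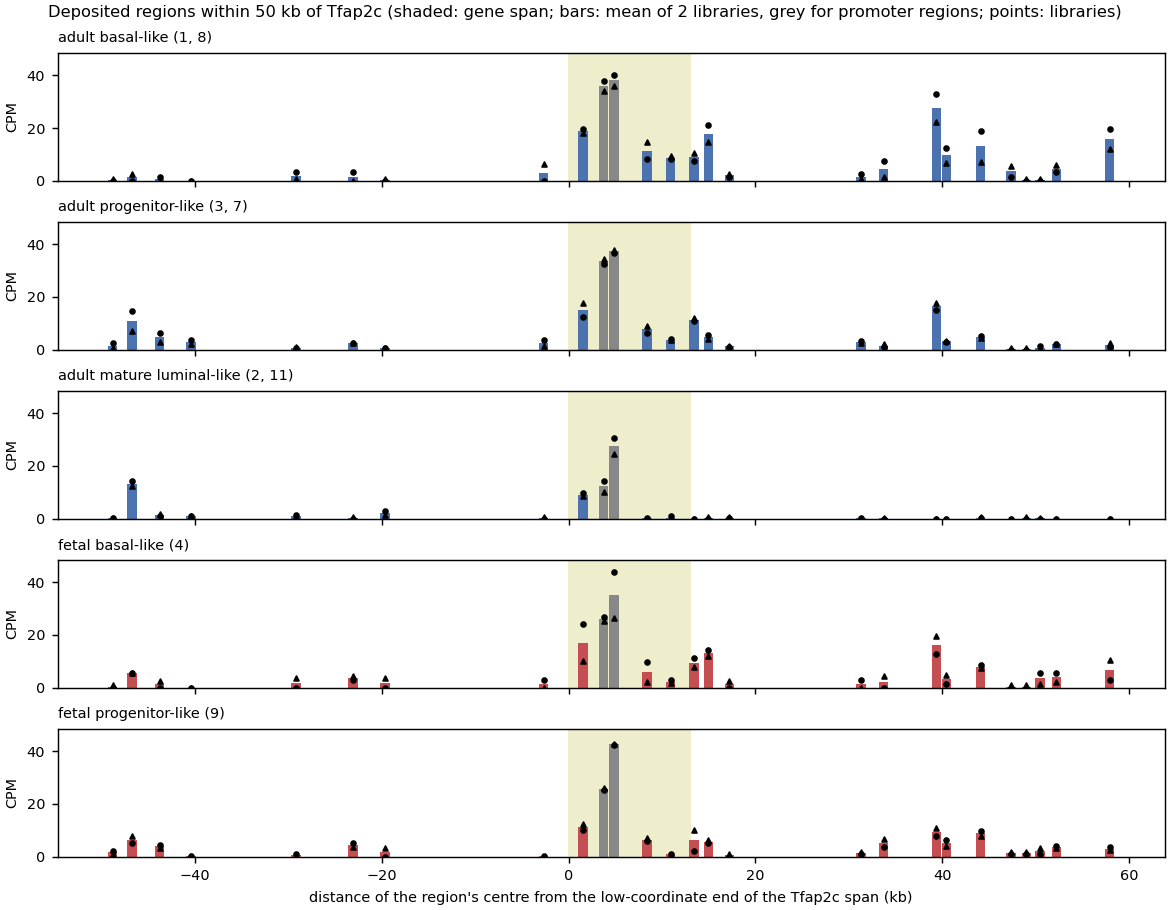
Mean CPM of reads in gene windows (bars, 2 libraries; points, each library) in deposited regions around Tfap2c, by distance in kb from the low-coordinate end of the span, for 5 class groups. The 9 regions whose centres lie 20.8 to 45.0 kb beyond the span are close to 0 in adult mature luminal-like nuclei, and their sum is higher in each of the other 4 groups.

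By stage, 7 of the 9 regions passed the filter on reads and 5 of the 7 rose in fetal nuclei. Since the stretch was chosen for few reads in mature luminal-like nuclei, which are nearly all adult, that count is partly set by the choice and is not to be read against the 35.3% of all distal regions called. Of the 5, 3 lost the call without at least 1 library: chr2:172585621-172586620 (1.076, adjusted p = 0.0385, and from 0.0606 to 0.218 without any 1 of the 4), chr2:172589294-172590293 (1.22, adjusted p = 0.00374, and 0.0890 without adult replicate 2) and chr2:172595647-172596646 (2.48, adjusted p = 0.0145, and 0.102 without adult replicate 2 and 0.0542 without adult replicate 1). The most read one had 31.2 and 32.1 CPM in fetal and 17.3 and 17.9 CPM in adult libraries (log2 fold change 0.85, SE 0.24, edgeR adjusted p = 0.00476) and missed the threshold with DESeq2 (0.79, adjusted p = 0.0536), as did the 3 regions just named. Within progenitor-like nuclei its order was the reverse, with 7.76 and 10.8 in fetal class 9 and 15.0 and 17.8 in adult classes 3 and 7, in gene-window CPM. The largest rise (chr2:172578915-172579914) had 11.55 and 16.15 CPM in fetal and 2.37 and 1.83 CPM in adult libraries (log2 fold change 2.76, SE 0.43, adjusted p = 2.84e-06). In progenitor-like nuclei it stayed higher in the fetal libraries, at 3.65 and 6.61 against 1.09 and 2.07. The largest fall near Tfap2c lay before the span (chr2:172498441-172499440), with 6.42 and 10.3 CPM against 22.25 and 15.85 CPM (log2 fold change -1.10, SE 0.32, edgeR adjusted p = 0.00619). Without adult replicate 1 it missed the threshold (-0.93, adjusted p = 0.0841).

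Cicero scores how far pairs of regions open together over nuclei. The authors' deposited table pools all nuclei and gives 1 score per pair, so it has no replicate. At a score of 0.1 or more, regions in the Tfap2c window had 122 links, those of Grhl2 75, Grhl1 42, Grhl3 27, Tfap2b 11 and Tfap2a 10. The pairs scored numbered 1028, 2785, 845, 1604, 287 and 613 in the same order, so the link numbers do not rank the members by share of pairs. At 0.25 or more, Grhl1 and Tfap2c kept 10 links each, Grhl2 9 and Grhl3 6, and Tfap2a and Tfap2b none.

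The highest links of Grhl3 started from the basal-like region over Gm30888. They reached a region inside Myom3, 206 kb away (score 0.575), and a region 47.7 kb away (score 0.410). The highest links of Grhl2 joined an intragenic region (chr15:37307862-37308861) to 2 regions in Ncald, with scores of 0.502 and 0.456. Those of Grhl1 joined its mature luminal-leaning intragenic region and its second promoter region to the same region nearer Taf1b (chr12:24472842-24473841), with scores of 0.447 and 0.401. Those of Tfap2c reached a region in Bmp7, which encodes a bone morphogenetic protein, 377 kb away (0.427) and a region 96.1 kb away (0.417). For Tfap2a the highest links that left the window, one of them to a region in Gcnt2, scored 0.148 and 0.145. For Tfap2b they scored 0.155 and 0.118. Links inside the window scored up to 0.218 for Tfap2a and 0.203 for Tfap2b.

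The motif score table had a column for Grhl1 and, among relatives of the families, for Ubp1, and none for the other 5 members. A chromVAR deviation score says whether regions with a motif are more or less accessible in a nucleus than regions of like depth and composition, centred near 0. It reads a motif that proteins of a family share, not a particular protein. By stage, the Grhl1 score had library means of 0.0282 and -0.0601 in fetal and 0.0946 and -0.113 in adult libraries, which overlapped. The difference, fetal minus adult, was -0.00671 (SE 0.0806, limma adjusted p = 0.948), while 67.9% of the 427 motif columns were called. The Ubp1 score differed by -0.174 (SE 0.0577, limma adjusted p = 0.0395), with -0.167 and -0.0612 in fetal and 0.0243 and 0.0958 in adult libraries. It lost the call without fetal replicate 1 (-0.12, adjusted p = 0.131), adult replicate 1 (-0.21, adjusted p = 0.081) and adult replicate 2 (-0.14, adjusted p = 0.199).

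Class medians of the Grhl1 score divided luminal from basal-like classes at both stages. Single nuclei were less divided: 56.5% of class 9 and 62.2% of class 7 nuclei lay above 0, against 10.5% of class 4 nuclei. Class medians were -1.84, -1.50 and -1.48 in basal-like classes 1, 8 and 4 and -2.21 in stromal-like class 6. They were 0.697, 0.375, 0.207 and 1.09 in progenitor-like classes 3, 7, 9 and 5 and 0.461 and 0.413 in mature luminal-like classes 2 and 11. Library means within a class kept the same sign: they were -1.42 and -1.39 in the 2 fetal libraries of class 4 and 0.953 and 1.215 in those of class 5, and -1.70 and -1.92 in the 2 adult libraries of class 1 and 0.345 and 0.634 in those of class 7. Among the widest gaps were 0.869 and 0.575 in class 10 and -0.912 and -0.503 in class 14. The range of its class medians, 3.295, had rank 39 from the top among 427 columns, whose median range was 1.015. It runs from stromal-like class 6 to progenitor-like class 5, so its low end is not basal-like. Over the 13 classes with at least 100 nuclei, the class median of the score and log2(CPM + 2) of the window had Pearson r of 0.79 for Grhl1, 0.63 for Grhl2 and -0.08 for Grhl3. These are descriptions over classes whose nuclei share libraries and, for each point, the same reads.

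**Figure D5:**
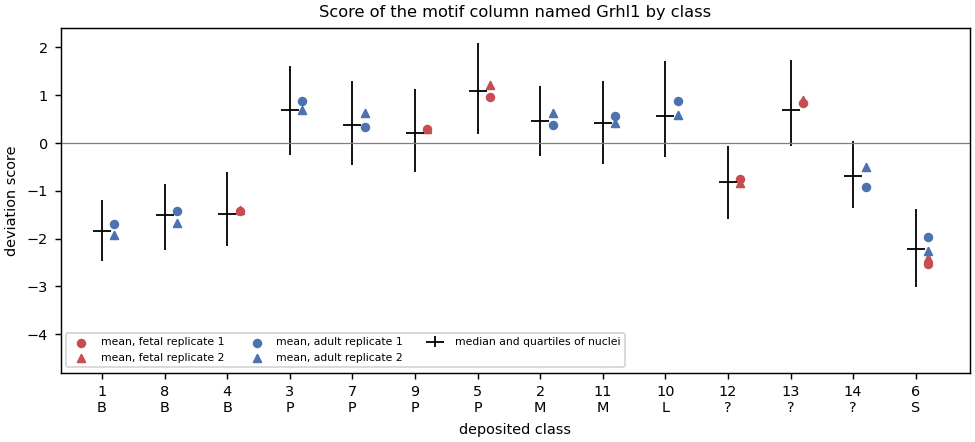
Deviation score of the Grhl1 motif column in the 14 deposited classes: black bars are medians of nuclei with quartiles, coloured points library means for libraries with at least 20 nuclei in the class. Basal-like classes 1, 8 and 4 lie between -1.84 and -1.48 and the progenitor-like and mature luminal-like classes above 0.

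Genes whose windows followed a member most closely over those 13 classes were sought among 15487 others, outside 100 kb of the member. For Grhl1 they were Krt8 (a luminal keratin, r = 0.98), Tmem125 (0.96) and Rreb1 (0.95). For Grhl2 they were Cdh1 (E-cadherin, 0.96), F11r (a tight junction protein, 0.96) and Lmntd2 (0.95). Tfap2a was followed by Gata3 (a transcription factor, 0.97), Esrp1 (an epithelial splicing factor, 0.96) and Map3k21 (0.96), and Tfap2c by Snai3 (0.97), Fxyd3 (0.96) and Mtmr2 (0.96). For Tfap2b they were Tekt5 (0.96), Fam83b (0.94) and Frmd7 (0.94), and for Grhl3 Pigp (0.94), Pcbp4 (0.89) and A930009A15Rik (0.89). The stromal-like class is 1 of the 13 points and is low for most of these genes. Gata3 was not higher in adult luminal nuclei, with means of 391 CPM in basal-like, 367 in progenitor-like and 388 in mature luminal-like nuclei.

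Genes of the wider pathways were counted next. Of 18 epithelial genes known as Grainyhead-like targets, 3 rose and 2 fell in fetal nuclei, 27.8% of the list beside 22.2% of all windows, with a median log2 fold change of 0.003 beside 0.01 over all windows. Spint1, a protease inhibitor of epithelia, fell from 130 and 124.5 CPM in adult to 79.5 and 73.1 CPM in fetal libraries (log2 fold change -0.74, SE 0.11, edgeR adjusted p = 0.000513), and it fell in progenitor-like nuclei as well (-0.65, adjusted p = 0.0016). Tgm1, a barrier transglutaminase, fell (-0.67, adjusted p = 0.0068; without fetal replicate 2 -0.43, adjusted p = 0.154). Dsp, Arhgef19 and Vangl2 rose by 0.42, 0.40 and 0.51 (adjusted p = 0.0202, 0.0264 and 0.0227), and each lost the call without at least 1 library, with adjusted p up to 0.149, 0.236 and 0.340 without fetal replicate 1, fetal replicate 1 and fetal replicate 2.

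In progenitor-like nuclei 1 of these 18 targets rose, Vangl2 (0.56, edgeR adjusted p = 0.0494; without adult replicate 1 0.44, adjusted p = 0.255, fetal replicate 1 0.61, adjusted p = 0.0915, and fetal replicate 2 0.52, adjusted p = 0.230), and 2 fell, Spint1 and St14 (-0.37, adjusted p = 0.0364). St14 missed the threshold with DESeq2 (adjusted p = 0.106) and without fetal replicate 1, fetal replicate 2 or adult replicate 1 (adjusted p from 0.0870 to 0.226). The 3 are 16.7% of the list beside 15.8% of all windows. In basal-like nuclei, basal markers summed to 548 CPM in fetal class 4 and to 1157 and 1037 CPM in adult classes 1 and 8. In the same order, progenitor markers summed to 267, 154 and 162 CPM and general luminal markers to 177, 142.5 and 118 CPM. The part of these shifts in the calls was not tested. Of the 18 targets, 2 rose and none fell in basal-like nuclei, 11.1% beside 6.16% of all windows. The 2 were Epcam, which encodes the surface protein of the sort (127 and 131 CPM in fetal class 4 against 56.7 and 51.0 CPM in the adult classes, log2 fold change 1.27, SE 0.23, edgeR adjusted p = 0.000329), and Cldn4, a claudin. Cldn4 had 50.9 and 39.7 CPM against 21.7 and 17.25 CPM (1.21, adjusted p = 0.0264) and missed the threshold without any 1 of the 4 libraries (adjusted p from 0.0514 to 0.200).

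Of 10 AP-2 partners and targets, none rose and 2 fell in fetal nuclei, near the 22.2% of all windows called. The 2 were Esr1 (111 and 130 CPM against 193 and 230 CPM, -0.80, edgeR adjusted p = 0.000477) and Foxa1 (-0.88, adjusted p = 0.000138). Both are also mature luminal markers of the class list, and none of the 10 passed in either class comparison. Erbb2 and Erbb3, receptor genes bound by AP-2, had log2 fold changes of -0.05 and -0.000756 (adjusted p = 0.819 and 0.998). Of 5 relatives, Tfcp2l1, a more distant member of the Grainyhead superfamily, fell in fetal nuclei (-0.89, SE 0.13, adjusted p = 0.000372). In progenitor-like nuclei it fell by 0.69 on the log2 scale (adjusted p = 0.00553; without fetal replicate 2 -0.68, adjusted p = 0.0567). In basal-like nuclei Tfcp2l1 did not pass and its value had the opposite sign (0.92, SE 0.35, edgeR adjusted p = 0.116). It had 53.7 and 32.9 CPM in the fetal and 23.3 and 20.8 CPM in the adult sums there. Tfap2d, Tfap2e, Tfcp2 and Ubp1 did not pass the test.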

How the data were processed

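Reads were aligned to mm10, and Bowtie2, MACS2 and bedtools were used, per the submitters' processing notes, which give no versions; shifting of cut sites and removal of duplicates are not given in the sources used here. Per the file headers, the deposited table holds deviation scores for 427 motifs (chromVAR by its name), a class number and the count of reads per nucleus, which equalled the reads that carry the barcode in all nuclei listed. Co-accessibility scores are the authors' deposited Cicero values. No doublet caller was run.

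Read counts of the deposited positions were made for gene windows (RefSeq, GRCm38.p6), promoter and distal regions, summed per library, since nuclei are not replicates. Tests were edgeR 4.0.16 quasi-likelihood (TMM, features averaging 10 reads or more a library, Benjamini-Hochberg adjusted p under 0.05 over all features) and, for motif scores averaged per library, limma 3.58.1, in R 4.3.3. The SE is the log2 fold change over the square root of the F statistic. DESeq2 1.42.0 was an alternative. Counting used Python 3.11.15. Classes were made from these nuclei's own accessibility, so classes of the same stage were not tested against each other. The stage comparisons between like classes, and the test of the difference between them, rest on the same classes and share this limit. The labels say biological replicates without saying how many animals each pools.

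Named were all members. Per member the text names the most read distal region within 50000 bases, the called distal regions of largest rise and fall averaging 20 reads or more a library, the 2 highest links that leave the window and the 3 most similar genes. Up to 4 genes per list were named; further list genes, and the stretch beyond Tfap2c, were chosen after their values were seen. The members and lists were chosen with earlier results of these data known. Alternatives were other scalings, filters, windows, barcodes and left-out libraries.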

Additional observations from a re-analysis of the deposited data

Results flagged for a closer look

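The stage difference of the Grhl3 window was larger in progenitor-like than in basal-like nuclei. Its log2 fold change, fetal over adult, was 1.13 between class 9 and classes 3 and 7, and 0.17 between class 4 and classes 1 and 8. The difference of these differences was 1.01 (SE 0.28, edgeR quasi-likelihood test of the interaction, adjusted p = 0.0415), among 535 of 17067 windows called, or 3.13%. The test was added after the data were seen. Each library gives a sum of both kinds, and with library as a block the value was 1.03 (adjusted p = 0.0037). The call was lost without fetal replicate 1 (1.19, adjusted p = 0.123), fetal replicate 2 (0.73, adjusted p = 0.374) and adult replicate 2 (0.94, adjusted p = 0.109). The basal-like sums of this window held 75 and 162 reads in fetal class 4 and 98 and 211 reads in the adult classes. The other 5 members did not pass this test, with adjusted p from 0.254 for Tfap2b to 0.980 for Tfap2a; with library as a block Tfap2b passed as well (0.54, adjusted p = 0.0406).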

How the results depend on the processing

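The Grhl3 window rose in fetal nuclei, over all nuclei and in progenitor-like nuclei, in each alternative run. With all libraries kept, 135 results that answer a comparison, among them numbers called, stayed the same under an alternative. For these, effects kept direction and side of the threshold, and counts stayed within 1.5 times. A further 8 counts moved by over 1.5 times, 5 values newly passed and 3 changed sign. Calls of single named genes and regions were lost in 18 such cases. With DESeq2 these were Vangl2, over all nuclei and in progenitor-like nuclei, St14 in progenitor-like nuclei, the promoter region nearest Tfap2a, the largest distal rise near Tfap2a, the largest rise and fall near Tfap2b and 4 of the 5 called regions beyond Tfap2c (adjusted p from 0.0535 to 0.229). Counted around each gene's first listed start only, Arhgef19, Dsp and Vangl2 were lost (edgeR adjusted p = 0.142, 0.939 and 0.244), and Tgm1 was lost over the span alone (0.218). Arhgef19 was also lost with all barcodes (0.0549), and chr2:172585621-172586620 without a filter (0.0855). The cause of the changes below was not tested.

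With DESeq2 the called features numbered 2622 promoter regions, 24872 distal regions, 1468 windows in progenitor-like and 322 in basal-like nuclei. A mean of 50 reads left 15301 distal regions called, with fewer tested. Links of all members numbered 35 at a score of 0.25. Around the first listed start only, Grhl1 passed (-0.40, adjusted p = 0.0112) and Tfap2b turned to -0.19. Without a filter Tfap2b passed in progenitor-like nuclei (0.37, adjusted p = 0.0242).

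Without 1 library the calls ranged from 1813 to 4460 windows, 2514 to 3057 promoter regions, 1408 to 2477 windows in progenitor-like and 547 to 867 in basal-like nuclei, and 37 to 614 for the difference between these (1040 with a library block, where Tfap2b passed at 0.54). Over all nuclei the log2 values ranged from -0.40 to -0.33 for Grhl2, -0.24 to -0.0578 for Grhl1, -0.0175 to 0.16 for Tfap2a and -0.10 to 0.28 for Tfap2b. In progenitor-like nuclei they ranged from -0.51 to -0.33 for Grhl2 and 0.12 to 0.58 for Tfap2b. In basal-like nuclei they ranged from -0.83 to -0.22 for Tfap2c, -0.0714 to 0.45 for Grhl3, -0.15 to 0.14 for Tfap2a and -0.34 to 0.0171 for Tfap2b. Between these, they ranged from 0.73 to 1.19 for Grhl3, -0.0728 to 0.70 for Tfap2c and -0.13 to 0.0846 for Tfap2a. The Grhl1 score difference ranged from -0.11 to 0.10.

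Uncalled values near 0 changed sign. Tfap2a in basal-like nuclei was 0.0403 at a mean of 50 reads. The Grhl2 region chr15:37232440-37233439 was 0.0151 at that mean, 0.0144 with all barcodes and -0.0926 to 0.105 without 1 library, and chr15:37233880-37234879 was 0.0253 and -0.0911 to 0.065. The Tfap2b region chr1:19208562-19209561 ranged from -0.61 to 0.0419. The Tfap2a region chr13:40730738-40731737 was -0.00301 with DESeq2 size factors, -0.00366 with DESeq2, -0.10 without a filter, -0.00914 with all barcodes and -0.19 to 0.14 without 1 library.

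Stages share replicate numbers that the labels do not say pair them. The correlation of the differences between replicates was 0.269 over windows, 0.0585 over promoter regions, 0.0401 over distal regions, 0.116 in progenitor-like and 0.0787 in basal-like nuclei. With a replicate block 6423 windows were called, Tfap2b passed in progenitor-like nuclei (0.36, adjusted p = 0.0112) and Tfap2c in basal-like nuclei (-0.55, adjusted p = 0.0332), and Tfap2a was 0.00623 there; the largest distal rise near Tfap2a was lost (adjusted p = 0.0582). The basal-like sums were the smallest, and the part of their depth in the number of calls was not tested.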
